A study of Mus musculus with 6 samples.

Results

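Peaks of open chromatin and of histone acetylation that lie deep inside very long genes were examined in embryonic mouse neurons of the dorsal root ganglion, the sensory ganglion beside the spinal cord. A peak was taken when its midpoint lay inside a protein-coding gene whose annotated span exceeds 500 kb and the peak was more than 1 kb from the annotated ends of every protein-coding gene. This gave 1943 of the 63576 peaks on chromosomes 1 to 19, X and Y: 1198 of 43652 ATAC peaks and 745 of 19924 H3K27ac peaks. They make up 2.74% of the ATAC list and 3.74% of the H3K27ac list. Peaks inside shorter genes, chosen by the same rule, numbered 14167 for ATAC and 5530 for H3K27ac.

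The cells came from E11.5 embryos of Runx3-BAC-GFP-CB6 transgenic mice, in which GFP driven from a Runx3 bacterial artificial chromosome marks TrkC neurons, the lineage of proprioceptors, which report muscle stretch. Dissociated ganglia were fixed with paraformaldehyde and GFP-positive cells were sorted, so the population is whatever expressed this reporter at that stage. The 6 samples form 3 groups of 2 preparations of 50000 cells each: a transposase assay of chromatin accessibility (ATAC), chromatin immunoprecipitation with an antibody to H3K27ac, and input DNA. All came from the same genotype, tissue and stage, and no untreated or mutant group was compared. Each assay is represented by 1 consensus peak list over its 2 replicates, with positions on mm10 and no signal, so depth is unknown and replicate error cannot be stated, and the input DNA was not used here.

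ATAC cuts DNA where nucleosomes are displaced, which happens at promoters, enhancers and other sites of factor binding. H3K27ac, acetylated lysine 27 of histone H3, lies on the nucleosomes that flank active promoters and enhancers. Genes over 500 kb are few in mammals and consist almost wholly of introns; many encode neuronal adhesion molecules, channels, receptors and synaptic scaffolds, and their introns can hold enhancers as well as further promoters that start shorter transcripts of the same gene.

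The labelled cell type was checked at the ends of marker genes. Of 10 markers of TrkC sensory neurons, 7 had ATAC and 6 had H3K27ac within 1 kb of an annotated end. The acetylated ones included Isl1, Pou4f1, Etv1, Tubb3 and Elavl4, while Ntrk3 (which encodes TrkC), Runx3, Avil and Prrxl1 had no H3K27ac there, and 9 of the 10 had both marks at an end or within the gene. Blood, endothelial, and muscle or mesenchymal lists of 4 genes each had ATAC at an end of 1, 1 and 3 genes and H3K27ac at an end of 0. Of 4 motor neuron markers, Isl2 alone was acetylated at an end. Of 6 glial and neural crest markers, 5 were acetylated at an end, Sox10, Erbb3, Fabp7 and Foxd3 among them, and their part in the results was not tested. Both marks at an end or within the gene were found for 1 blood, 1 endothelial and 0 muscle or mesenchymal markers. In the motor neuron list it was 1, and in the glial and neural crest list 3.

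Some of the widest acetylated regions inside long genes lie at start sites that RefSeq annotates in the gene's interior, far from its outer 5′ end. The 300 bases around 8 such start sites are shown, 250 before the start and 50 from it on, as RefSeq gives them for GRCm38.p6, 5′ to 3′ on the gene's strand, with CG dinucleotides in capitals. The 6 shown at the beginning carried both ATAC and H3K27ac within 1 kb of the start and had the widest H3K27ac peaks among starts over 10 kb from the 5′ end. They belong to Frmd4a (a scaffold of cell polarity, chr2:4559504-4559803, plus strand), Nrxn3 (neurexin 3, a presynaptic adhesion protein, chr12:89812233-89812532, plus), Rbms3 (an RNA-binding protein, chr9:117252434-117252733, minus), Tenm4 (a teneurin, a transmembrane adhesion protein, chr7:96211421-96211720, plus), Ank2 (ankyrin-B, which ties membrane proteins to spectrin, chr3:127409009-127409308, minus) and Robo2 (a receptor for Slit guidance proteins, chr16:74411776-74412075, minus). The last pair carried neither mark and belong to Dmd (dystrophin, chrX:82948620-82948919, plus) and Dlg2 (a postsynaptic scaffold, chr7:91090536-91090835, plus), the longest genes with such a start.
Frmd4a: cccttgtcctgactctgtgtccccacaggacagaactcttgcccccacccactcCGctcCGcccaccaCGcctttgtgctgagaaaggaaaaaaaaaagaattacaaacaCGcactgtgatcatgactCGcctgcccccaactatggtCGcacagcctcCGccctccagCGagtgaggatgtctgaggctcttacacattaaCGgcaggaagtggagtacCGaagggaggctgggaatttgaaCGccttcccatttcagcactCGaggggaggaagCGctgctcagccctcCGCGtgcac
Nrxn3: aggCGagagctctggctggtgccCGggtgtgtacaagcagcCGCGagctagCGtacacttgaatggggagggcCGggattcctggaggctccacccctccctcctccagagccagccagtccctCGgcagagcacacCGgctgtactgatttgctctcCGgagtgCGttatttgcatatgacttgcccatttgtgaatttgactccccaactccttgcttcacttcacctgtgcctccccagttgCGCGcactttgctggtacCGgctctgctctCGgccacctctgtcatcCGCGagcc
Rbms3: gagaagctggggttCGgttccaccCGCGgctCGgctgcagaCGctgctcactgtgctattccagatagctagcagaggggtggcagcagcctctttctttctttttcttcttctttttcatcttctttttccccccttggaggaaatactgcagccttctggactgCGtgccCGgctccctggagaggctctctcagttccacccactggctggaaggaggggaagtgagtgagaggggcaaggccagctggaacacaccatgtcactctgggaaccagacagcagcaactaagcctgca
Tenm4: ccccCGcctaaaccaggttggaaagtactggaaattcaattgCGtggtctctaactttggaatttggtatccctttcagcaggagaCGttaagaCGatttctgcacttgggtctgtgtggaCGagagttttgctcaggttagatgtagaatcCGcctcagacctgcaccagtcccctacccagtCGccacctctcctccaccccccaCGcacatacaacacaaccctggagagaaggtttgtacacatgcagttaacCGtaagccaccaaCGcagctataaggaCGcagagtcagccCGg
Ank2: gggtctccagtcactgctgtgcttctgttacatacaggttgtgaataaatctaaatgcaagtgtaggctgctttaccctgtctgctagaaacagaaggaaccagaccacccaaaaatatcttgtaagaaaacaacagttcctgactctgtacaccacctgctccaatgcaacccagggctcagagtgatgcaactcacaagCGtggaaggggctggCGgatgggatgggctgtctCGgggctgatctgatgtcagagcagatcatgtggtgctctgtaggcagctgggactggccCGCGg
Robo2: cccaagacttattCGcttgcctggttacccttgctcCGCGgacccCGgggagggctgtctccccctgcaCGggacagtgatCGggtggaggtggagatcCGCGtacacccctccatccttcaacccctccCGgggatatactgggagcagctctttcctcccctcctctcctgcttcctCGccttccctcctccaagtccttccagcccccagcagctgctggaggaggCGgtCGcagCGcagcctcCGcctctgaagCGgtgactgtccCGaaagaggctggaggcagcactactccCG
Dmd: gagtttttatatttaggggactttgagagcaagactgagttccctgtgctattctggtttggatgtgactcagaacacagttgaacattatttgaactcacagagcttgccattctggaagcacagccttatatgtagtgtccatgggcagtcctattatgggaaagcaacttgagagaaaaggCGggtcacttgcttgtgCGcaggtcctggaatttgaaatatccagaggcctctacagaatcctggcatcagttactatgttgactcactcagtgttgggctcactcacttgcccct
Dlg2: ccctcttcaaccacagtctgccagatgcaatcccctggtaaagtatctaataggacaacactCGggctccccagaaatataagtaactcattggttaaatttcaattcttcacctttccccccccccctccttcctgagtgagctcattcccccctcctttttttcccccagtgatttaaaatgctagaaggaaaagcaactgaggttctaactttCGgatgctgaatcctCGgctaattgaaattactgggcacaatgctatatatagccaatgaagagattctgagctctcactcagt

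The sequences with both marks held between 5 (Ank2) and 17 (Robo2) CG dinucleotides, and those with neither held 2 (Dmd) and 3 (Dlg2). The Frmd4a start lies 542 kb from the annotated 5′ end under an H3K27ac peak of 7266 bp, and the Nrxn3 start lies 1090 kb from its 5′ end with an H3K27ac peak of 4567 bp. The Robo2 start lies 1036 kb and the Rbms3 start 377 kb into the gene, with H3K27ac peaks of 3294 and 4343 bp. The Ank2 start lies 91.3 kb and the Tenm4 start 40.4 kb from the 5′ end, with H3K27ac peaks of 3777 and 3905 bp.

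The genes that can hold these peaks number 227 of 21887 protein-coding genes, with a median span of 734 kb and a longest span of 2390 kb (Dmd). Their eligible interior sums to 189.8 Mb, against 798.7 Mb in shorter genes. Interior ATAC peaks were sparser in long genes: 0.631 per 100 kb (95% exact Poisson interval 0.596 to 0.668) in genes over 500 kb, against 1.77 (1.74 to 1.80) in shorter genes, a ratio of 0.356 (0.335 to 0.377). One ATAC peak thus fell on average in 158 kb of long gene and in 56.4 kb of shorter gene. H3K27ac peaks were sparser too, by less: 0.392 per 100 kb (0.365 to 0.422) in genes over 500 kb, against 0.692 (0.674 to 0.711) in shorter genes, a ratio of 0.567 (0.525 to 0.612). These and the later intervals cover counting error only, and peaks of the same gene are not independent of each other.

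Density varied with span across all genes, not only at 500 kb. The interior ATAC density was 3.44 per 100 kb in genes under 10 kb, 2.23 at 10 to 50 kb, 1.76 at 50 to 100 kb, 1.70 at 100 to 200 kb and 1.33 at 200 to 500 kb. Beyond 500 kb it was 0.819 in the 117 genes up to 750 kb, 0.595 in the 51 up to 1000 kb and 0.487 in the 59 longer ones. The H3K27ac density took another course. Genes under 10 kb held 88 interior H3K27ac peaks in 17.6 Mb, and the next 4 classes had 0.635, 0.695, 0.770 and 0.690 per 100 kb, followed by 0.482, 0.343 and 0.341 in the 3 longer ones. Against genes of 200 to 500 kb, the ratio for genes over 500 kb was 0.475 (0.444 to 0.508) for ATAC and 0.569 (0.521 to 0.621) for H3K27ac. Among genes at the boundary, Edil3 (an integrin-binding matrix protein), Dock1 (a Rac exchange factor) and Samd12 (a SAM-domain protein), of 502 to 503 kb, held 1, 1 and 0 interior ATAC peaks and 1, 0 and 0 H3K27ac peaks. Just under it, Dnm3 (a dynamin), Lrrc7 (a postsynaptic scaffold) and Cacna1e (an R-type calcium channel subunit), of 494 to 496 kb, held 5, 2 and 4 ATAC peaks and 4, 0 and 6 H3K27ac peaks.

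**Figure D1:**
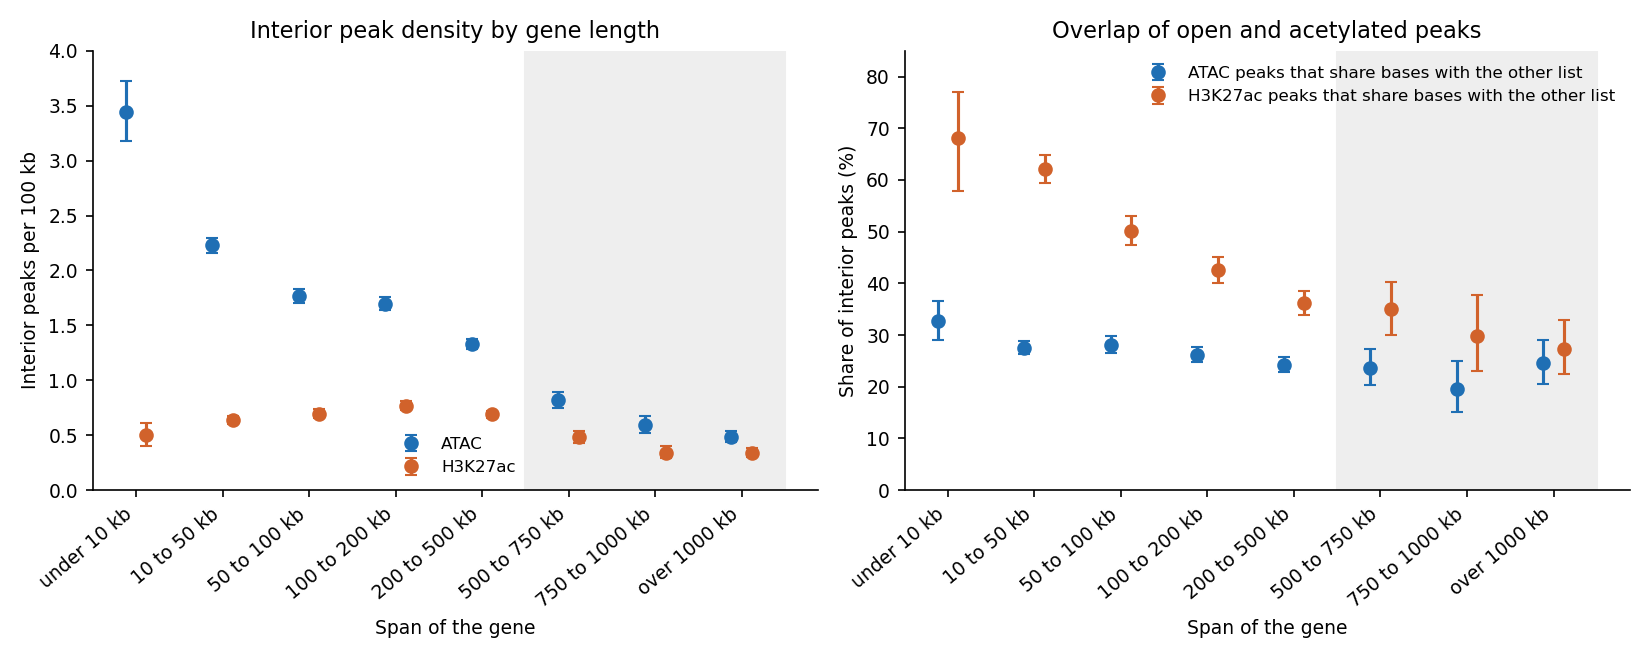
Interior peaks per 100 kb of eligible gene (left, exact Poisson 95% intervals) and share of interior peaks that share at least 1 bp with a peak of the other assay (right, Wilson 95% intervals), by span class of the host gene; the shaded classes are the genes over 500 kb. ATAC density is 3.44 per 100 kb in the shortest class and 0.487 in the longest, while the acetylated share of ATAC peaks stays between 19.6% and 32.7%.

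Most long genes held some open chromatin inside, a measure that also depends on the length of the interior. At least 1 interior ATAC peak lay in 202 of 227 genes over 500 kb (89.0%, Wilson interval 84.2 to 92.4), where 31.2% of all protein-coding genes had one. At least 1 interior H3K27ac peak lay in 164 of them (72.2%, 66.1 to 77.7), where 14.7% of all protein-coding genes had one. Genes of 200 to 500 kb had interior ATAC in 84.5% and interior H3K27ac in 63.3%. A long gene held a median of 4 ATAC peaks (quartiles 2 to 7.5, at most 35) and 2 H3K27ac peaks (0 to 4, at most 23), or 0.468 and 0.193 per 100 kb.

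Peaks were also counted by gene. The 10 genes with the most ATAC peaks held 222 of the 1198 (18.5%) in 4.17% of the summed span. The 20 with the most held 31.1% in 9.18%. These genes were ranked on the same counts, so a share above that of span follows from the choice. Nav2, a microtubule-associated protein of growing neurites, held 35, of which 5 overlapped H3K27ac. It was followed by Camta1 (a calmodulin-binding transcription activator) with 25 and 2 acetylated, Auts2 (a nuclear protein linked to transcription in developing neurons) with 24 and 9, and the teneurin genes Tenm3 with 23 and 9 and Tenm4 with 21 and 12. Frmd4a, Ank2 and Kalrn (kalirin, an exchange factor for small GTPases) held 20 each, of which 13, 5 and 2 were acetylated. Asic2 (a proton-gated sodium channel) held 17 with 5 acetylated, and Slit3 (a secreted ligand of Robo receptors) held 17 with 1. Among the 10, the acetylated part was largest in Frmd4a (13 of 20) and Tenm4 (12 of 21). It was smallest in Slit3 (1 of 17) and Camta1 (2 of 25). Over all interior ATAC peaks of long genes it was 277 of 1198 (23.1%).

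Per 100 kb, Nav2 again stood at the top with 5.39 ATAC peaks, followed by Ank2 (3.47), Frmd4a (3.36), Kalrn (3.32), Nfia (3.16), Camta1 (3.14), Slit3 (2.91), Tenm4 (2.85), Kirrel3 (2.35) and Auts2 (2.17). All 10 exceed the 1.77 per 100 kb pooled over shorter genes. Kirrel3, an immunoglobulin-domain adhesion protein, had 13 ATAC peaks, 0 of them acetylated, and 1 H3K27ac peak elsewhere. The largest counts of acetylated ATAC peaks belonged to Frmd4a (13), Tenm4 (12), Auts2 and Tenm3 (9 each), Nfia (8), Lrmda (7) and Nrxn3 (6). Asic2, Nrg1, Robo1, Nav2 and Ank2 had 5 each, as did the overlapping genes Schip1 and Iqschfp, and Gm37013, Gm38666 and Gm38667, which share peaks.

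The order by H3K27ac peaks was another one. Tenm4 held 23, Nfia (a nuclear factor I transcription factor) 21, Rbms3 20, and Robo1 (a Slit receptor) and Thsd7b (a thrombospondin-domain membrane protein) 19 each. Auts2, Grip1 (a scaffold that binds glutamate receptors) and Frmd4a held 15 each, and Lrmda (a leucine-rich repeat protein of melanocyte differentiation) and Celf2 (a splicing regulator) 14 each, as did the shorter Nav2. Without Nav2, these 10 genes, again ranked on the same counts, held 175 of the 745 H3K27ac peaks (23.5%) in 4.42% of the summed span. The 20 with the most held 39.7% in 10.1%. Thsd7b had 19 H3K27ac peaks beside 1 ATAC peak, Rbms3 20 beside 6, and Celf2 14 beside 4. Camta1 was the opposite case, with 2 H3K27ac peaks beside 25 ATAC peaks.

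**Figure D2:**
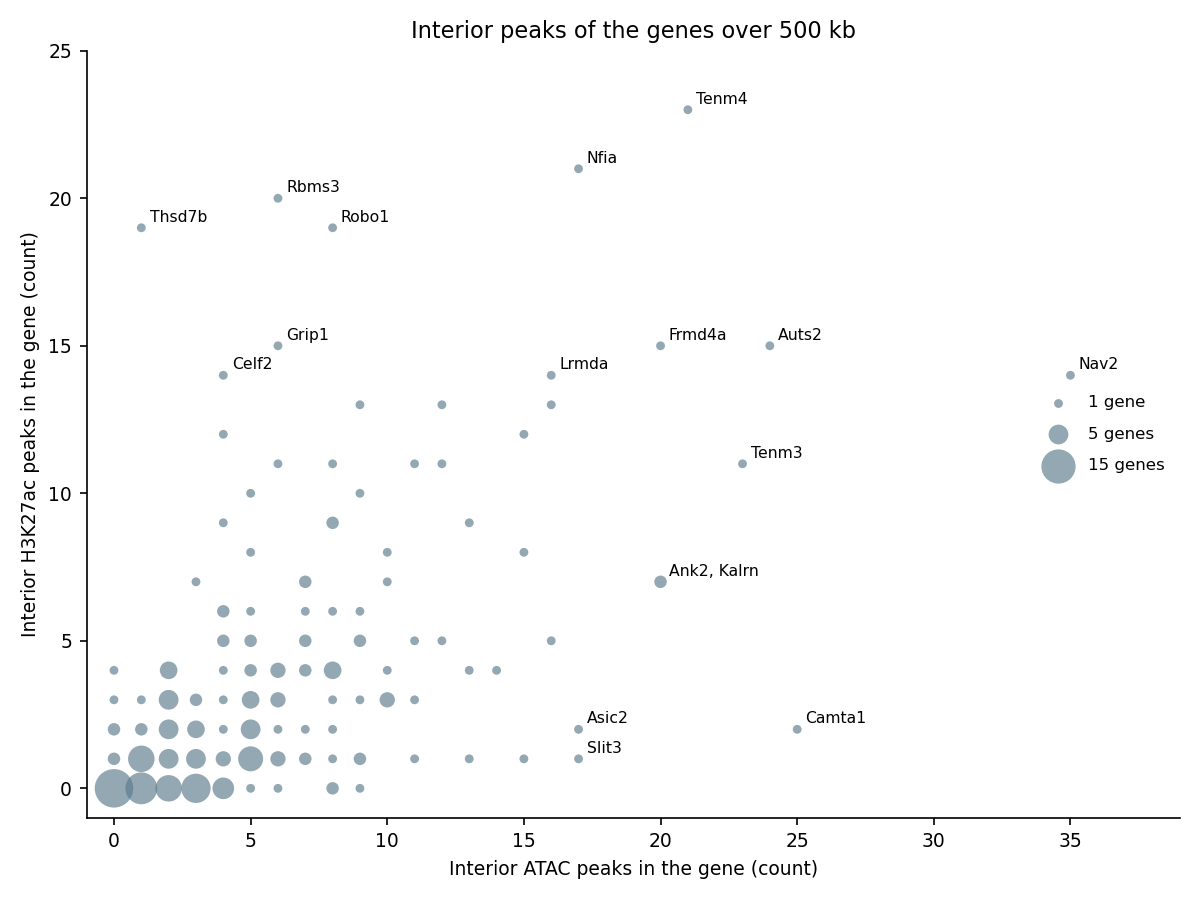
Interior H3K27ac peaks (vertical, count) against interior ATAC peaks (horizontal, count) for the 227 genes over 500 kb; the area of a point gives the number of genes at that place, and genes with at least 17 ATAC or 14 H3K27ac peaks are named. Nav2 lies far right with 35 ATAC peaks, Tenm4 at the top with 23 H3K27ac peaks, and Thsd7b at the upper left with 1 and 19.

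The longest genes were not those with the most peaks. Among the 5 longest, Dmd (2390 kb) had 4 ATAC peaks and 0 H3K27ac peaks, Ptprd (a receptor-type tyrosine phosphatase, 2271 kb) 7 and 5, Cntnap2 (a neurexin-like adhesion protein, 2241 kb) 10 and 7, Lsamp (a limbic-system adhesion protein, 2197 kb) 9 and 6, and Lrp1b (a lipoprotein-receptor-like protein, 2058 kb) 2 and 0. All 5 lie below 0.45 ATAC peaks per 100 kb. No peak of either list lay inside 19 of the 227 genes. The longest of these are Sgcz (zeta-sarcoglycan, 1144 kb), Spag16 (a protein of the sperm axoneme, 898 kb), Grm8 (a metabotropic glutamate receptor, 860 kb), Marchf1 (a ubiquitin ligase, 855 kb) and Inpp4b (a phosphoinositide phosphatase, 792 kb).

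Function groups were compared by their counts of interior peaks and by medians. The medians of all 227 long genes were 0.468 ATAC and 0.193 H3K27ac peaks per 100 kb. Of the 227, 89.0% held an interior ATAC peak and 72.2% an interior H3K27ac peak, shares to set beside the gene counts of the lists. These lists were written with earlier results of these data known, some genes stand in several, and 73 of the 227 genes stand in none. Transcriptional regulators had the highest median ATAC density, 1.06 per 100 kb, and 0.539 for H3K27ac. Of the 15 in this size class, 14 held an interior ATAC peak and 14 an H3K27ac peak, and Dach2, a homologue of fly dachshund, held neither. Their 140 ATAC peaks, 41 acetylated, include those of Camta1 (25), Auts2 (24), Nfia (17) and Zfhx3 (a zinc-finger homeobox factor, 12).

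The 39 adhesion genes had medians of 0.421 ATAC and 0.169 H3K27ac peaks per 100 kb. Interior ATAC peaks lay in 35 of them and H3K27ac peaks in 27, 226 and 123 peaks in all. The highest counts were in the teneurins Tenm3 (23 ATAC, 11 H3K27ac) and Tenm4 (21 and 23), Ntm (neurotrimin, 16 and 5) and Nrxn3 (15 and 12). Cntnap5a, Cntnap5c (neurexin-like proteins), Lrrtm4 (a synaptic leucine-rich repeat protein) and Fstl5 (a follistatin-like secreted protein) had 0 interior ATAC peaks.

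All 16 guidance and axon growth genes held interior ATAC peaks, at a median of 0.606 per 100 kb, where 89.0% of all long genes held one. H3K27ac peaks lay in 13, at a median of 0.385 per 100 kb, where 72.2% of all long genes held one. Nav2 (35 ATAC), Slit3 (17), Ptprn2 (a receptor-type phosphatase-like protein, 13) and Dab1 (the adaptor of reelin signalling, 11) led the group. Without H3K27ac were Epha6 (an ephrin receptor), Dcc (a netrin receptor) and Ptprk (a receptor-type tyrosine phosphatase). The ligand and the receptors of the Slit pathway had different makeups: Slit3 had 17 ATAC peaks and 1 H3K27ac peak, Robo1 had 8 and 19, and Robo2 had 4 and 4.

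The 11 genes on the list of channels and their auxiliary subunits, which does not hold Asic2, had medians of 0.362 ATAC and 0.171 H3K27ac peaks per 100 kb. Of the 11, 10 had both kinds of peak, and Kcnd2 (a voltage-gated potassium channel) had neither. Cacna1c (the L-type calcium channel subunit) led this list with 9 ATAC peaks, 0 acetylated, followed by Dpp6 (an auxiliary subunit of potassium channels, 6, 3 acetylated), Dpp10 (its relative, 5) and Trpm3 (a heat-gated cation channel of sensory neurons, 5). The 11 receptor and receptor-ligand genes had medians of 0.415 ATAC and 0.131 H3K27ac peaks per 100 kb. Nrg1 (neuregulin, the axonal ligand of ErbB receptors) held 8 ATAC peaks, 5 acetylated, and 11 H3K27ac peaks, while Alk (a receptor tyrosine kinase) held 8 ATAC peaks and 1 H3K27ac peak. Grid1 (a glutamate receptor-like protein) held 6 ATAC peaks, 0 acetylated, and the metabotropic genes Grm5, Grm7 and Grm8 had 0 H3K27ac peaks.

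The 23 scaffold and cytoskeletal genes had medians of 0.468 ATAC and 0.380 H3K27ac peaks per 100 kb. All but Sgcz held an interior ATAC peak, and Kalrn, Frmd4a and Ank2 (20 each) and Syne1 (nesprin-1 of the nuclear envelope, 10) held the most. The 15 signalling enzymes and regulators all held ATAC peaks (median 0.575 per 100 kb) and 13 held H3K27ac peaks (0.291). The cAMP phosphodiesterase Pde4d led with 15 ATAC peaks, followed by Arhgap26 (a GTPase-activating protein, 14), Mast4 (a microtubule-associated kinase, 9) and Pde4b (6), and Vps13b (a lipid-transport protein) and Rgs6 (a regulator of G-protein signalling) had 0 H3K27ac peaks.

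Of the 4 RNA-binding protein genes, 3 held more H3K27ac than ATAC peaks: Rbms3 had 20 H3K27ac and 6 ATAC peaks, Celf2 14 and 4, and Rbfox1 (a neuronal splicing factor) 13 and 12, while Khdrbs2 (a KH-domain splicing regulator) had 0 of both. Their median H3K27ac density was 1.25 per 100 kb, with 0.518 for ATAC. The 13 matrix and heparan sulphate genes had 0.340 ATAC and 0.171 H3K27ac peaks per 100 kb. Slit3 (17 ATAC), St6galnac3 (a sialyltransferase, 10), Gpc6 (a glypican, 8) and Thsd4 (a matrix protein of microfibrils, 6) led this group, and Galnt13 (a glycosyltransferase) had 0 ATAC peaks. The 18 genes known from human or mouse work as common fragile sites, which overlap the other lists, all held ATAC peaks at a median of 0.459 per 100 kb, and 13 held H3K27ac peaks at 0.203. Auts2 (24 ATAC), Dab1 (11) and Cntnap2 (10) were among those with the most, and Dlg2, Dmd, Csmd1 (a complement-regulating membrane protein), Lrp1b and Naaladl2 (a peptidase-like membrane protein) had 0 H3K27ac peaks.

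Overlap of the marks was then compared with shorter genes. Of all ATAC peaks of the data set, at gene ends and between genes included, 39.6% shared at least 1 bp with an H3K27ac peak. In genes over 500 kb, 277 of 1198 interior ATAC peaks were acetylated in this sense (23.1%, Wilson interval 20.8 to 25.6), against 3809 of 14167 (26.9%, 26.2 to 27.6) in shorter genes. The difference of -3.76 percentage points had a 95% Newcombe interval of -6.18 to -1.19. It became smaller with a wider window around gene ends, -1.42 (-3.85 to 1.19) at 2.5 kb and -0.758 (-3.31 to 1.97) at 10 kb, where its interval included 0. Interior peaks of long genes also lie farther from gene ends, at a median of 147 kb for ATAC, against 13.9 kb in shorter genes.

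The acetylated shares were also set side by side at equal distance from a gene end. At 1 to 10 kb they were 32.2% in long genes and 32.3% in shorter genes. At 10 to 50 kb, where long genes held 174 ATAC peaks, the gap was widest, with 16.1% in long genes and 22.4% in shorter genes. At 50 to 100 kb they were 23.1% in long genes and 24.0% in shorter genes, and beyond 100 kb 23.4% in long genes and 25.4% in shorter genes. The share was higher for wider peaks in both classes: ATAC peaks up to 150 bp, of 150 to 300 bp and over 300 bp were acetylated in 10.9%, 22.7% and 53.6% of cases in long genes, and in 8.62%, 26.2% and 62.4% in shorter genes.

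Acetylated regions without an ATAC peak made up a larger share of the H3K27ac peaks in long genes, though per 100 kb they were fewer: 0.270 in long genes, against 0.366 in shorter genes. Of all H3K27ac peaks of the data set, 68.9% shared bases with an ATAC peak. Inside genes over 500 kb it was 233 of 745 (31.3%, 28.0 to 34.7), against 2609 of 5530 (47.2%, 45.9 to 48.5) in shorter genes, a difference of -15.9 percentage points (-19.4 to -12.2). The share was lower in each longer class, 68.2%, 62.2%, 50.2%, 42.6% and 36.2% over the 5 shorter classes and 35.0%, 29.9% and 27.4% over the 3 longer ones. By distance from a gene end, it was 67.6% in long genes and 61.8% in shorter genes at 1 to 10 kb, and 31.3% and 44.6% at 10 to 50 kb. Beyond 100 kb it was 28.7% in long genes and 32.3% in shorter genes.

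The 512 H3K27ac peaks of long genes that met no ATAC peak lay a median of 31.5 kb from the nearest one (quartiles 7.40 to 89.0 kb), and 21.9% lay over 100 kb away. The 2921 such peaks of shorter genes lay a median of 8.57 kb away, and 2.64% of them over 100 kb. In long genes the median H3K27ac peak without ATAC was 632.5 bp wide and that with ATAC 1128 bp, and in shorter genes 635 bp without ATAC and 1201 bp with it. The gap between gene classes was also present among peaks of like width: among H3K27ac peaks over 1000 bp, 46.0% in long genes and 65.03% in shorter genes met an ATAC peak. Peak signal was not given, so these peaks cannot be ranked by strength.

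In 10 genes there were 11 or more H3K27ac peaks without ATAC, a count that also depends on how many H3K27ac peaks the gene holds. Over all long genes, 512 of 745 interior H3K27ac peaks (68.7%) met no ATAC peak. Of the 10 genes, Tenm4 and Nfia lay below that share. Thsd7b had 18 of 19, Rbms3 17 of 20, Nfia and Robo1 14 each of 21 and 19, Tenm4 13 of 23, Rbfox1 12 of 13, Celf2 12 of 14, Exoc4 (a subunit of the exocyst, chosen after its values were seen) 12 of 12, Sdk1 (sidekick 1, an adhesion protein) 11 of 13 and Grip1 11 of 15. In Thsd7b, 8 H3K27ac peaks stood within 28.4 kb (chr1:129452100-129480493), with 1 ATAC peak among them. In Exoc4, 7 stood within 18.7 kb (chr6:33720556-33739244), 0 of them overlapping ATAC. Runs of 7 in Tenm4 (chr7:96643653-96681026, 37.4 kb), in Nav2 (chr7:48962995-48995809, 32.8 kb) and in Zfhx3 (chr8:108691558-108715559, 24.0 kb) held 4, 2 and 3 H3K27ac peaks with ATAC. Runs of at least 3 H3K27ac peaks, each within 10 kb of the next, took up 99 of 745 peaks (13.3%, 11.04 to 15.9) in long genes and 783 of 5530 (14.2%, 13.3 to 15.1) in shorter genes, a pattern examined after the data were seen.

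**Figure D3:**
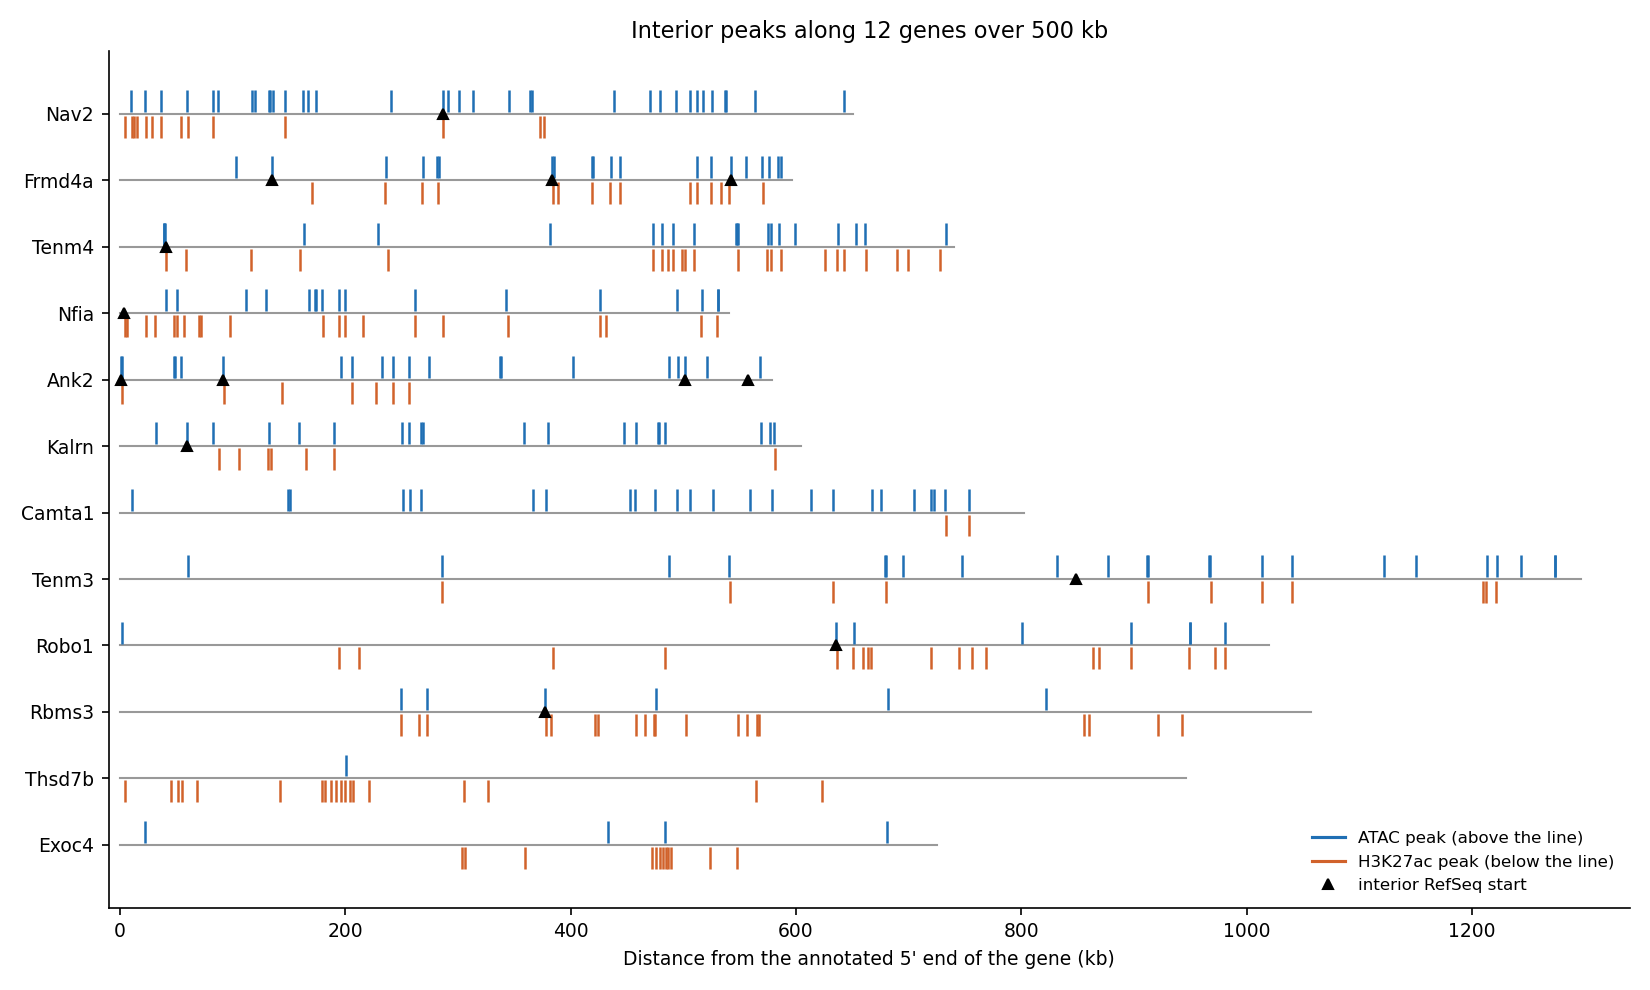
Position of every interior ATAC peak (above each line) and H3K27ac peak (below it) along 12 genes over 500 kb, in kb from the annotated 5′ end; the line spans the gene and triangles are interior RefSeq start sites. Camta1 shows 25 ATAC peaks and 2 H3K27ac peaks, Thsd7b shows 1 and 19, and in Frmd4a and Tenm4 13 of 20 and 12 of 21 ATAC peaks overlap H3K27ac.

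The single widest peaks were also examined. The widest interior H3K27ac peak was that of Frmd4a at its interior start (7266 bp, chr2:4554648-4561913), followed by peaks in Grip1 (6640 bp), Zbtb20 (a zinc-finger transcription factor, 6181 bp), Nav2 (6048 bp), Celf2 (5935 bp), Nrg1 (5665 bp), Sema6d (a transmembrane semaphorin, 5390 bp), Thsd7b (5281 bp), Nrxn3 (4567 bp) and Zbtb20 again (4409 bp). Those of Celf2 and Thsd7b met no ATAC peak, and the other 8 did. The widest ATAC peak, 1160 bp in Mctp1 (a calcium-binding membrane protein, chr13:76383880-76385039), met no H3K27ac peak. The next 9, between 793 and 976 bp, all did, and 6 of them lay at an interior start of their host: Cadps2 (a vesicle-priming protein), Magi1 and Magi2 (junctional scaffolds), Anks1b (a synaptic scaffold), Adgrb3 (an adhesion G-protein-coupled receptor) and Robo1. The other 3 lay in Camta1, Rims1 (a protein of the presynaptic active zone) and Nkain3 (a partner of the sodium pump).

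ATAC peaks were bunched in some stretches and absent from others. The densest 50 kb stretch lay in Nav2, with 8 ATAC peaks (chr7:49076603-49125710), followed by Dlgap1 (a postsynaptic scaffold, 7, chr17:70707164-70755486) and by Nfia, Tenm4, Frmd4a and Auts2 with 6 each. Consecutive ATAC peaks of a gene were a median of 41.6 kb apart (quartiles 11.8 to 121 kb), and 21.8% of the 1022 gaps were under 10 kb. The longest stretch between consecutive ATAC peaks of a gene measured 1147 kb in Nkain2 (another sodium pump partner), in a span of 1208 kb. It was followed by 999.5 kb in Prkg1 (a cGMP-dependent kinase), 970 kb in Magi2, 907 kb in Cntnap2 and 859 kb in Dmd. Stretches that run to an end of the gene are not counted here, and the longest free of ATAC peaks was then 1301 kb in Lrp1b. H3K27ac peaks were present in 4 of the 5 stretches between ATAC peaks, 5 in that of Prkg1, 2 in that of Magi2 and 1 each in those of Nkain2 and Cntnap2, and 0 lay in that of Dmd.

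Peak density also varied along the gene, which could be measured from the 5′ to the 3′ end in the 179 long genes and 565 genes of 200 to 500 kb with a start in the RefSeq promoter table. This comparison was chosen after the data were seen. In long genes, ATAC density was 2.92 per 100 kb at 1 to 10 kb from the 5′ end, 0.531 at 10 to 50 kb, 0.514 at 50 to 100 kb, 0.559 at 100 to 200 kb, 0.610 at 200 to 500 kb and 0.691 beyond. Counted from the 3′ end, it was 1.496, 1.23, 1.05, 0.861, 0.559 and 0.524 over the same bands. Between 10 and 100 kb from an end, 182 ATAC peaks lay on the 3′ side and 84 on the 5′ side, a density ratio of 2.17 (1.67 to 2.81). A peak in several long genes, such as those shared by Schip1 and Iqschfp, counts for each gene here. With bases in more than 1 gene left out, the counts were 172 and 82 and the ratio 2.09 (1.61 to 2.72). Genes of 200 to 500 kb had 1.24 and 1.33 per 100 kb at 10 to 50 and 50 to 100 kb from the 5′ end, and 1.63 and 1.33 from the 3′ end.

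In the band 1 to 10 kb from the 5′ end the gene classes had densities with overlapping intervals, 2.92 per 100 kb (2.15 to 3.88) in long genes and 3.01 (2.55 to 3.53) in genes of 200 to 500 kb. The next band differed, with 0.531 (0.376 to 0.729) at 10 to 50 kb in long genes against 1.24 (1.10 to 1.40) in genes of 200 to 500 kb. At 1 to 10 kb from the 3′ end long genes had 1.496 (0.958 to 2.23) and genes of 200 to 500 kb 1.46 (1.15 to 1.83). H3K27ac in long genes was also densest near the 5′ end, 1.37 per 100 kb (0.857 to 2.07), and lowest near the 3′ end, 0.125 (0.0151 to 0.450), which is 2 peaks. ATAC peaks near the 3′ end were seldom acetylated: 8.33% at 1 to 10 kb and 12.5% at 10 to 50 kb in long genes, and 12.2% and 15.8% in genes of 200 to 500 kb, where the 1 to 10 kb band at the 5′ end had 42.6% in long genes and 57.9% in genes of 200 to 500 kb.

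**Figure D4:**
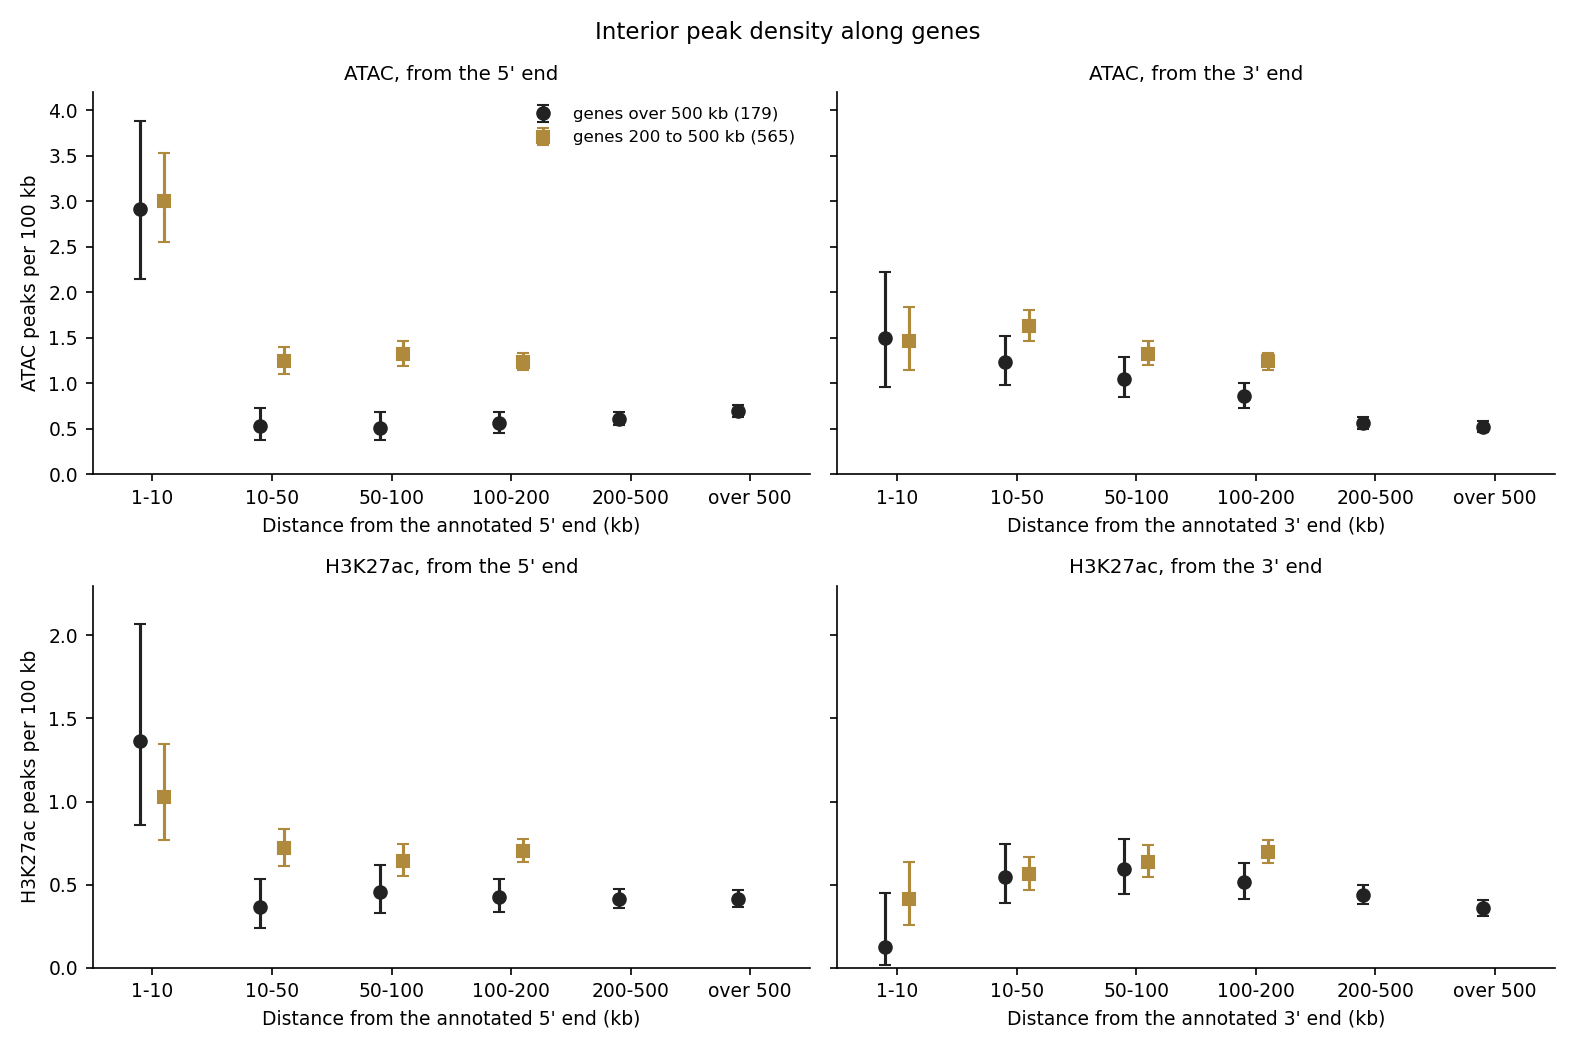
Interior ATAC (upper row) and H3K27ac (lower row) peaks per 100 kb in bands of distance in kb from the annotated 5′ end (left) and 3′ end (right), for 179 genes over 500 kb (circles) and 565 genes of 200 to 500 kb (squares), with exact Poisson 95% intervals. In genes over 500 kb ATAC density is 0.531 at 10 to 50 kb from the 5′ end and 1.23 at the same distance from the 3′ end.

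Start sites inside the genes were considered last, again after the data were seen. RefSeq gives 132 start sites over 1 kb inside 87 of the long genes, and 3328 inside shorter genes. ATAC lay within 1 kb of 75 of the 132 (56.8%, 48.3 to 64.96), where 50.1% of all interior starts had it. H3K27ac lay within 1 kb of 58 (43.9%, 35.8 to 52.5), where 41.4% of all interior starts had it. Both marks stood at 50 starts in 45 long genes (37.9%, 30.1 to 46.4), against 37.8% in shorter genes, and 37.8% of all. ATAC alone stood at 18.9% (13.2 to 26.5) in long genes and 12.02% (10.96 to 13.2) in shorter genes. Of the 50 starts with both marks, 35 lie over 100 kb from the annotated 5′ end, with a median of 374 kb over all 50.

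By distance into the gene, the share with both marks was 52.6% of 19 starts at 1 to 10 kb, 38.5% of 13 at 10 to 100 kb, 36.4% of 55 at 100 to 500 kb and 33.3% of 45 farther in, with intervals that all overlap. Any peak within 1 kb of a start counted, those at the outer gene end included. The Adgrl3 start, 1.67 kb in, thus has an H3K27ac peak of 3639 bp, where the widest interior one of that gene is 445 bp. The CG content of the 300 bases differed with the marks, as in the sequences shown: the median number of CG dinucleotides was 16 with both marks, 9 with ATAC alone, 6 with H3K27ac alone and 3 with neither, and 7 over all 32851 starts of the table. Starts of shorter genes had medians of 21, 12, 6 and 4 in the same order. The letters TGTGGT, the core read by Runx proteins, or their complement ACCACA were found in 5 of the 50 sequences with both marks (10%) and in 10 of the 49 with neither (20.4%), against 16.8% of all starts. Of the sequences shown, those of Ank2 and Dlg2 each hold 1 match.

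**Figure D5:**
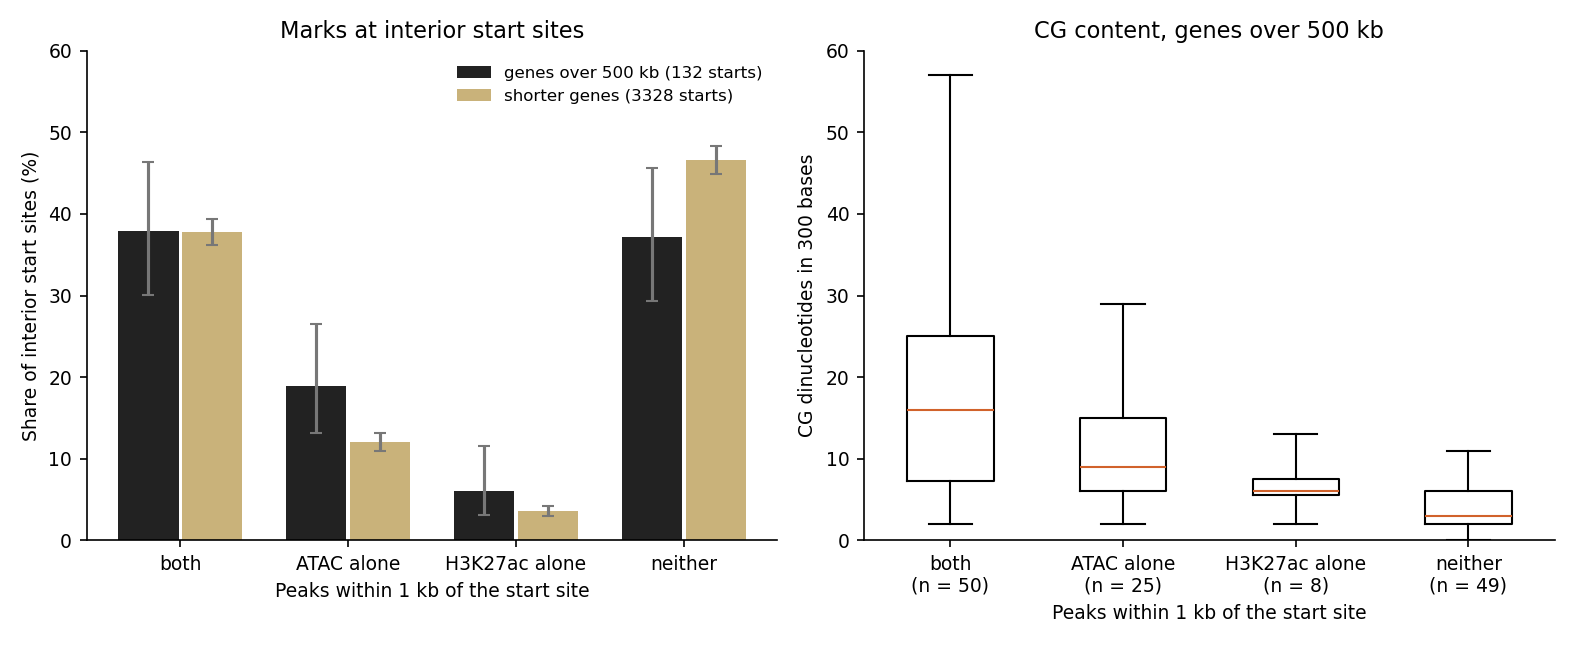
Left, share of interior RefSeq start sites with peaks within 1 kb, in % with Wilson 95% intervals, for genes over 500 kb and shorter genes; right, number of CG dinucleotides in the 300 bases around the start in genes over 500 kb (box, quartiles; line, median; whiskers, lowest and highest). Both gene classes have both marks at about the same share (37.9% and 37.8%), and the CG median is 16 with both marks and 3 with neither.

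Some long genes lacked both marks at their outer ends and carried them within. Of the 227, 108 had both marks within 1 kb of an annotated end, 66 ATAC alone, 3 H3K27ac alone and 50 neither (22.0%, 17.1 to 27.9), against 21.4% of genes of 200 to 500 kb; over all protein-coding genes it was 38.1%. The 50 with neither mark had a median interior ATAC density of 0.524 per 100 kb, beside 0.514 in those with both and 0.395 in those with ATAC alone, and 45 of the 50 held interior ATAC peaks. RefSeq gives interior starts for 30 of the 50, and in 17 of these an interior start carried both marks. Over all long genes with an interior start, 45 of 87 had one with both marks. By starts it was 20 of 44, beside 50 of 132 (37.9%) in all long genes. The 17 genes are Adgrb3, Ank2, Asic2, Cacna1c, Cadps2, Celf2, Fgf13, Grik2, Hdac9, Magi2, Nkain2, Pcdh9, Rarb, Robo1, Tenm4, Trpm3 and Zfhx3. They include ion channels and glutamate receptors (Asic2, Cacna1c, Trpm3, Grik2), adhesion and guidance molecules (Tenm4, Pcdh9, Robo1) and transcriptional regulators (the retinoic acid receptor Rarb, the histone deacetylase Hdac9 and Zfhx3). In 11 of the 17 such a start lay over 10 kb from the annotated 5′ end, and in the other 6 (Adgrb3, Cadps2, Grik2, Magi2, Nkain2 and Pcdh9) all such starts lay within 7.66 kb of it.

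Peaks near interior starts were a small part of the whole but differed from the rest. In long genes with a start in the table, 92 ATAC peaks lay within 1 kb of an interior start, and 57 of these (62.0%, 51.7 to 71.2) were acetylated, beside 170 of 879 (19.3%, 16.9 to 22.1) farther away. Of 55 H3K27ac peaks near an interior start, 48 (87.3%, 76.0 to 93.7) met an ATAC peak, beside 146 of 578 (25.3%, 21.9 to 29.0) farther away. ATAC peaks near interior starts had a median width of 284.5 bp, beside 169 bp farther away. Most interior peaks of long genes, 879 of the 1198 ATAC peaks and 578 of the 745 H3K27ac peaks, thus lay in hosts with a start in the table and away from any interior start.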

How the data were processed

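Sorted E11.5 dorsal root ganglion neurons gave 2 ATAC, 2 H3K27ac and 2 input samples. The deposited values are positions only: the authors made 1 consensus peak list per assay, with cutadapt 1.18, Bowtie2 2.3.5.1, MACS2 and bedtools on mm10, per the submitters' processing notes, which list the tools without their roles. How the consensus was formed, thresholds and depth are not given in the sources used here. Libraries had at most 15 PCR cycles, per the labels' protocols.

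The 19 autosomes, X and Y were kept (peaks: 43652 of 43739 ATAC, 19924 of 19928 H3K27ac), and positions are printed counted from 1. Gene spans came from RefSeq GRCm38, the assembly of mm10, and gene ends were those of protein-coding genes. Strand, start sites and promoter sequence came from the RefSeq promoter table of GRCm38.p6, which matched 179 of the 227 long genes; starts of the other 48 were not used here. Densities divide peak counts by the gene interior over 1 kb from every gene end. A peak in several long genes counts for each gene but once in totals (18 ATAC and 12 H3K27ac peaks, such as those of Gm37013, Gm38666 and Gm38667, and of Schip1 and Iqschfp), and 24 ATAC and 7 H3K27ac peaks also lie in a shorter gene. Counts by band along the gene and gaps between ATAC peaks were summed over genes, so there such a peak counts for each. Shares have 95% Wilson intervals, differences Newcombe intervals, and densities exact Poisson intervals. With no value per sample, no test over replicates could be made, and none was made over regions. The ATAC density ratio and the difference in acetylated share were tested on a simulated set of randomly placed peaks. The other procedures were not tested in this way. Python 3.11.15, numpy 2.4.6, pandas 2.3.3, scipy 1.17.1 and matplotlib 3.10.9 were used.

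The members and the gene lists were chosen with earlier results of these data known. Named are the 10 genes leading in ATAC count, ATAC density, H3K27ac count and acetylated ATAC count; the 5 longest genes, and the 5 longest without a peak; the 3 spans on either side of 500 kb; the 4 leading members of each list and list exceptions of 5 or fewer (a few genes this rule takes are not reported here); the 10 widest peaks of each kind; the 5 densest stretches and the 5 longest gaps. Genes named for H3K27ac peaks without ATAC, runs of peaks, interior starts or unmarked ends were chosen after their values were seen. Alternatives covered the span limit, the window at gene ends, the wider 50% of peaks, the overlap rule, autosomes, genes in genes, leaving out the 10 leading hosts, and covered bases in place of peak counts.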

Additional observations from a re-analysis of the deposited data

How the results depend on the processing

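Every ratio and difference between long and shorter genes kept its direction under the alternatives run, and the ATAC density ratio of 0.356 and H3K27ac ratio of 0.567 stayed below 1. With long genes defined as over 300 kb the ratios were 0.457 and 0.745, and with over 1000 kb 0.296 and 0.516. The ATAC ratio was 0.392 with a 10 kb window at gene ends and 0.475 against genes of 200 to 500 kb, a comparison chosen after seeing the data. With the wider 50% of each list the ratios were 0.325 and 0.512, and without the 10 hosts richest in ATAC peaks 0.303 and 0.515. Counting covered bases gave 0.516 for H3K27ac. The difference in acetylated share was -6.23 points with a 0.5 kb window, -0.758 with a 10 kb window and -10.8 with the wider 50% of peaks. Its interval included 0 with windows of 2.5 and 10 kb and with genes over 1000 kb (-2.03). The difference in open share of H3K27ac was -11.6 points with a 10 kb window and -24.3 with the wider 50%. The ratio of ATAC density near the 3′ end to that near the 5′ end, chosen after seeing the data, was 1.48 over 300 kb and 3.87 over 1000 kb. The share of interior starts with both marks, also chosen after seeing the data, was 15.9% with the wider 50%. That setting removes peaks from both lists, so this share cannot rise under it. The causes of the other changes were not tested. The other 53 recomputed values of these results moved less than their intervals, those with the ends of all annotated genes among them, an alternative chosen after seeing the data. Some of these could hardly move. Requiring the whole peak in the interior gave the main values again, because peaks touching a gene-end window were already left out. The 3′ to 5′ ratio was taken 10 to 100 kb from an end, beyond the windows at the gene's own ends. Counts of the 10 leading hosts left their exact Poisson intervals with the wider 50% of peaks (Nav2 to 13, Auts2 to 14), where a count cannot rise. The other alternatives moved some by a few peaks within those intervals (Nav2 to 32 with the ends of all annotated genes). No paired analysis was possible because the deposited lists pool the replicates. Depth is unknown, peaks carry no signal, and an interior without peaks says only that none was listed.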

Other observations

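MicroRNA genes inside the long genes were examined as a further set, after the data were seen. RefSeq places 27 annotated microRNA hairpins in the eligible interiors, and 2 of them had a peak within 1 kb, where 20.6% of all 1005 annotated hairpins, at any position, had one: Mir1904 in Pde4d, with 1 ATAC and 1 H3K27ac peak, and Mir5623 in Atrnl1, with 1 H3K27ac peak. Among the 25 others were Mir218-2 in Slit3, Mir153 in Ptprn2, Mir204 in Trpm3 and Mir592 in Grm8, with 0 peaks of either kind.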
